A study of Mus musculus with 6 samples.

Results

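The integrated stress response was followed through 10 of its genes, Atf4, Ddit3, Trib3, Chac1, Asns, Sesn2, Ppp1r15a, Atf5, Psat1 and Phgdh, taken by gene symbol from a table of 12556 genes measured by RNA sequencing. The set was chosen by symbol with measured values in view: the levels in both groups, and the difference of POS-challenged replicate 3 from replicates 1 and 2, were known from earlier results of the same contrast. Of the 10, 8 had a row in that table, and Atf4 and Asns were not analysed here. Cells were primary cultures of retinal pigment epithelium (RPE), the pigmented sheet of cells that takes up shed photoreceptor tips, from C57BL/6J mice aged 10 to 12 days. In the POS-challenged group, cultures received mouse photoreceptor outer segments (POS) at about 10 per RPE cell for 1.5 h and were washed 3 times. In the unchallenged group, cultures received no outer segments. Cultures of both groups, with the RPE of about 1 eye per well, were 5 to 6 days old on filters of 0.4 µm pore size, and each group had 3 libraries that the labels call biological replicates. No time after 1.5 h was sampled, and a whole culture was measured, so fewer cells of a type and less RNA per cell cannot be told apart.

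The integrated stress response begins when kinases that sense unfolded protein, amino acid shortage, double-stranded RNA or heme deficiency phosphorylate the translation factor eIF2. Bulk protein synthesis then slows, while the mRNA of the transcription factor ATF4 is translated more efficiently, so ATF4 activity can change with little change of its mRNA. ATF4 with its C/EBP partners induces genes of amino acid synthesis and uptake, tRNA charging, and stress effectors, and one of them, Ppp1r15a, feeds back by directing the dephosphorylation of eIF2. The RPE ingests outer segment protein and lipid every day and degrades them in lysosomes.

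Levels are normalized counts, which are read counts divided by a library size factor. The 6 libraries held 24869273 to 30420028 reads over the table, and 383 to 9701 reads stood behind each value of the 8 genes, so that counting error alone was at most 5.11% (coefficient of variation). Challenged replicate 3 stood apart in the study: its 10 most abundant genes took 8.23% of reads, against at least 10.7% in the other 5 libraries, and its summed level of 9 measured sterol synthesis genes was 26201, against 62853 and 63593 in challenged replicates 1 and 2, while unchallenged libraries had 58992.5 to 70761. It is shown apart throughout, a choice made with earlier results of these data known, among them its difference in the 8 genes. Markers of RPE (9 of 10 measured) had a total level of 40804, 36861 and 25529.5 in challenged replicates 1, 2 and 3, against 26921, 38034 and 36174 in the unchallenged replicates. Tyr, at 15831 to 26214, dominated this sum, and the RPE genes differed in direction: 5 of 9 fold changes were above 0 and 4 below. All challenged values lay above all unchallenged ones for 2 of the 9, against 9.56% of all genes. Fibroblast and pericyte markers (7 of 7 measured) summed to 44035 to 55926 in challenged and 48451 to 69984 in unchallenged libraries. The corresponding sums were 229 to 403 and 262 to 357 for macrophages (4 of 7), and 138 to 178 and 106 to 185 for endothelium (2 of 5). Col1a1, at 30666 to 50182, dominated the fibroblast sum, whose genes differed in direction: 4 of 7 fold changes were above 0 and 3 below. Pdgfra (challenged mean 1689, unchallenged 861) and Pdgfrb (2013 and 1580) were higher in every challenged library, as were 9.56% of all genes. The authors' deposited table calls both higher (adjusted p = 0.00334 and 0.0176). Dcn averaged 471 in challenged and 1085 in unchallenged libraries, but the groups overlapped (limma adjusted p = 0.445). It had 468, 443 and 502 in challenged replicates 1, 2 and 3, against 1878, 481 and 895 in unchallenged replicates 1, 2 and 3. Sag was the only 1 of 10 photoreceptor markers measured, at 578 to 987 in challenged and 17.9 to 26.6 in unchallenged libraries; the other 9 were not analysed here. No measured marker was at 0 in these sums. The part of these differences in the results below was not tested.

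The promoters of the genes were searched for letters of known response elements, as a description. That the 8 measured genes were high together in 1 library, as described below, was known when they were chosen. RefSeq promoter windows (GRCm38.p6), from 250 bases before to 50 bases after the gene start, were found for all 10 genes. The core of the C/EBP-ATF response element, TGATGNAA, on either strand, was in the windows of 3 of the 10 genes, Chac1, Trib3 and Asns, and in 4.51% of the 27025 genes with a window. Asns is not among the 8 measured genes, and Ddit3, Sesn2, Ppp1r15a, Atf5, Psat1 and Phgdh had no match to this core. The core was in the windows of 5 of 8 aminoacyl-tRNA synthetase genes with a window and of 1 of 15 genes of the IRE1 and ATF6 arms of the unfolded protein response. The other pathway lists had it in 4 of 11 partners and effectors, 2 of 6 amino acid transporters, 2 of 10 synthesis genes and 1 of 13 eIF2 genes. Lists outside the pathway held it too, with 2 of 7 RPE marker genes, 1 of 6 sterol synthesis genes and 1 of 7 photoreceptor genes with a window. It was in 0 of 7 interferon-stimulated, 0 of 4 macrophage, 0 of 3 fibroblast and 0 of 2 endothelium genes. The ER stress response element, CCAAT and CCACG with 9 bases between them, on either strand, was in 0 of the 10 members, in 6 of those 15 genes and in 0.137% of all genes. The matches shown do not overlap each other and are descriptions of letters, with no binding measured. The stretches around the matches are shown for the members with a match and, for contrast, for Hspa5 and Hsp90b1, the most abundant genes of the other arms, with the matching letters in capitals (for the ER stress response element its fixed ends).
Chac1, chr2:119351023-119351082, plus strand: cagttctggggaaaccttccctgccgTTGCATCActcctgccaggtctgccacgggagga
Trib3, chr2:152344028-152344057, minus strand: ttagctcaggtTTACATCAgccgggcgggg
Asns, chr6:7693210-7693258, minus strand: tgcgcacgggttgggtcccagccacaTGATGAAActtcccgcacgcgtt
Hspa5, chr2:34772005-34772063, plus strand: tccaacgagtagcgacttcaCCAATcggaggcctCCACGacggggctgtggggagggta
Hsp90b1, chr10:86705618-86705676, minus strand: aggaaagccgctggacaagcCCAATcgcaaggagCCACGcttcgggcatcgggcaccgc
The match begins 193 bases before the RefSeq start in Chac1 and 23 bases before it in Asns, and at base 15 of the RefSeq transcribed part in Trib3. By the GENCODE M21 starts, 152344032 for Trib3 and 7693254 for Asns, the Trib3 match lies before the gene and the Asns match inside it.

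Among the transcription factors, Ddit3, which encodes the ATF4-induced factor CHOP, had 1028, 890.1 and 2620.4 normalized counts in challenged replicates 1, 2 and 3, against 1418, 910.4 and 1326 in unchallenged replicates 1, 2 and 3. The groups overlapped, with challenged replicate 3 above every other library and challenged replicate 2 the lowest of the 6. Atf5, a factor of the ATF4 family whose mRNA is also translated under eIF2 phosphorylation, had 6502, 6754 and 9777 normalized counts in challenged libraries, against 7216, 6631 and 7575 in unchallenged ones. Its challenged replicates 1 and 2 lay within or just under the unchallenged range and replicate 3 above it.

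Trib3, a pseudokinase induced by ATF4 and CHOP that in turn restrains ATF4, had 503, 422 and 2995 normalized counts in challenged replicates 1, 2 and 3, against 543, 465 and 694 in unchallenged libraries. Its level in challenged replicate 3 was 6.47 times the mean of challenged replicates 1 and 2 and 4.31 times the highest unchallenged library. Chac1, an enzyme that degrades glutathione, had 379, 354 and 693 normalized counts in challenged libraries, against 420.2, 429 and 561 in unchallenged ones. Sesn2, a leucine-binding inhibitor of mTORC1, had 827, 823 and 1688 normalized counts in challenged libraries, against 1099, 1019 and 1153 in unchallenged ones. Ppp1r15a, the regulatory subunit of the eIF2 phosphatase also known as GADD34, had 2469.7, 2426 and 5004 normalized counts in challenged libraries, against 2759, 3139 and 3369 in unchallenged ones. In each of Chac1, Sesn2 and Ppp1r15a, challenged replicates 1 and 2 lay below all 3 unchallenged libraries and challenged replicate 3 above all of them. Challenged replicates 1 and 2 lay below all unchallenged libraries for 19.2% of all genes.

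In the serine synthesis enzymes, as in Atf5, Chac1, Sesn2 and Ppp1r15a, challenged replicate 3 stood less far above replicates 1 and 2 than in Trib3 and Ddit3. Phgdh, which takes the first step from glycolysis into serine, had 1551, 1582 and 2447 normalized counts in challenged libraries, against 1715, 1378 and 1715 in unchallenged ones. Psat1, the next enzyme of serine synthesis, had 2381, 2319 and 3223 normalized counts in challenged libraries, against 2883, 2184 and 2499 in unchallenged ones. For both, challenged replicates 1 and 2 lay inside the unchallenged range. Challenged replicate 3 exceeded the highest unchallenged library 1.43-fold for Phgdh and 1.12-fold for Psat1.

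**Figure D1:**
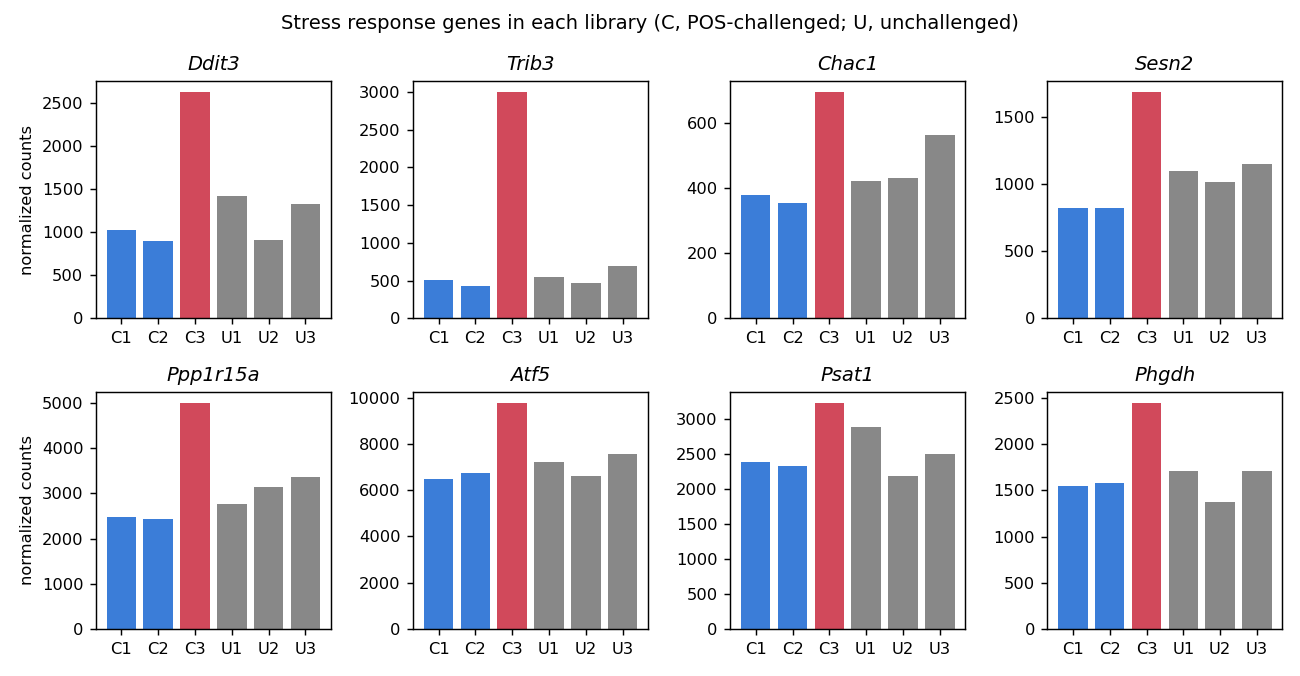
Normalized counts (vertical axes, from 0) of the 8 measured genes in each library, with challenged replicates 1 and 2 in blue, challenged replicate 3 in red and unchallenged replicates in grey. In every panel the red bar is the highest, from 693 for Chac1 to 9777 for Atf5.

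Over all 6 libraries, challenged and unchallenged means lay close together for 7 of the 8 genes, with log2 fold changes (challenged over unchallenged, on the log2(value + 1) scale, ± SE) between -0.06 ± 0.27 for Sesn2 and 0.19 ± 0.19 for Phgdh. Trib3 averaged 1307 ± 1463 normalized counts in challenged cells and 567 ± 117 in unchallenged cells (SD, n = 3 each), a log2 fold change of 0.62 ± 0.69. Ddit3 averaged 1513 ± 962 in challenged and 1218 ± 270.4 in unchallenged cells, a log2 fold change of 0.16 ± 0.40. None of these changes passed the test: in limma, a linear model that pools the spread over genes, 0 of the 8 genes passed an adjusted p of 0.05 and 0 reached an unadjusted p of 0.05, where 0.0956% and 11.5% of all 12556 genes did. Of the 7 genes with an adjusted p in the authors' deposited table, 0 passed, against 2.55% of the 12056 genes with an adjusted p. Of the same 7, 0 had a raw p under 0.05, against 11.7% of the 12543 genes with a raw p. For Trib3 the authors' deposited table gives a log2 fold change of 0.15, against 0.62 in the limma fit. The table gives it neither a raw nor an adjusted p, which 13 and 500 genes in all lack, and no source used here says why. The deposited and limma fold changes come from different models and are not like measures. They were 3.15 and 5.16 for Sag and -0.10 and -3.52 for Isg15, but 0.16 and 0.19 for Phgdh. The 3 challenged values lay all above the unchallenged ones for 0 of the 8 genes and all below them for 0, against 9.56% and 10.4% of all genes. The genes were chosen with results of this contrast known, so these counts describe them and support nothing further.

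Without challenged replicate 3 each of the 8 fold changes was below 0, as were 49.3% of all genes, against 2 of 8 and 48.3% with it. Challenged replicates 1 and 2 then averaged 825 for Sesn2, against 1090.3 ± 67.3 in unchallenged cells (SD, n = 3), a log2 fold change of -0.40 ± 0.07. Ppp1r15a averaged 2448 against 3089 ± 308 (log2 fold change -0.33 ± 0.09), Chac1 367 against 470.2 ± 79.0 (-0.35 ± 0.14) and Ddit3 959 against 1218 ± 270.4 (-0.32 ± 0.20). Trib3 averaged 463 against 567 ± 117 (-0.28 ± 0.18). For Atf5, Psat1 and Phgdh the log2 fold changes were -0.11 ± 0.07, -0.09 ± 0.11 and -0.03 ± 0.11. In this limma fit 0 of the 8 passed an adjusted p of 0.05, as did 0.104% of all genes, and 2, Sesn2 and Ppp1r15a, reached an unadjusted p of 0.05, as did 13.5% of all genes.

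**Figure D2:**
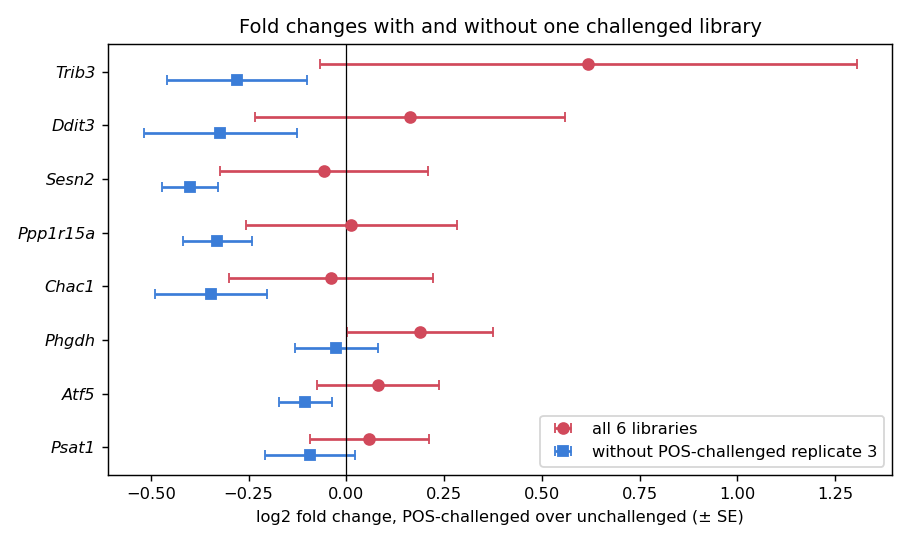
Log2 fold change of POS-challenged over unchallenged cells (horizontal axis, points with SE) for each of the 8 genes, with all 6 libraries (red circles) and without challenged replicate 3 (blue squares). Leaving that library out takes Trib3 to -0.28, against 0.62 with it, and places every gene below 0.

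Challenged replicate 3 was the highest of the 6 libraries for 8 of the 8 genes, as it was for 31.0% of all genes. This pattern was known when the genes were chosen and is given as a description. On the log2 scale the level in challenged replicate 3 minus the mean of replicates 1 and 2 was 2.70 for Trib3, 1.45 for Ddit3, 1.03 for each of Sesn2 and Ppp1r15a and 0.92 for Chac1. It was 0.64 for Phgdh, 0.56 for Atf5 and 0.46 for Psat1. Over all genes that difference had a median of 0.00226 and lay between -0.642 and 0.593 at the 5th and 95th percentiles. Ranked from the highest of 12556 genes, Trib3 stood at 19, Ddit3 at 74, Sesn2 at 167, Ppp1r15a at 168, Chac1 at 220, Phgdh at 530, Atf5 at 721 and Psat1 at 1139. Thus 4 of the 8 differed by at least 1, as did 1.46% of all genes. The combination of challenged replicate 3 above all others and replicates 1 and 2 below every unchallenged library held for 3 of the 8 genes and for 4.46% of all genes. The labels give no reason for the difference of this library, and with 1 library there is no replicate of it.

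**Figure D3:**
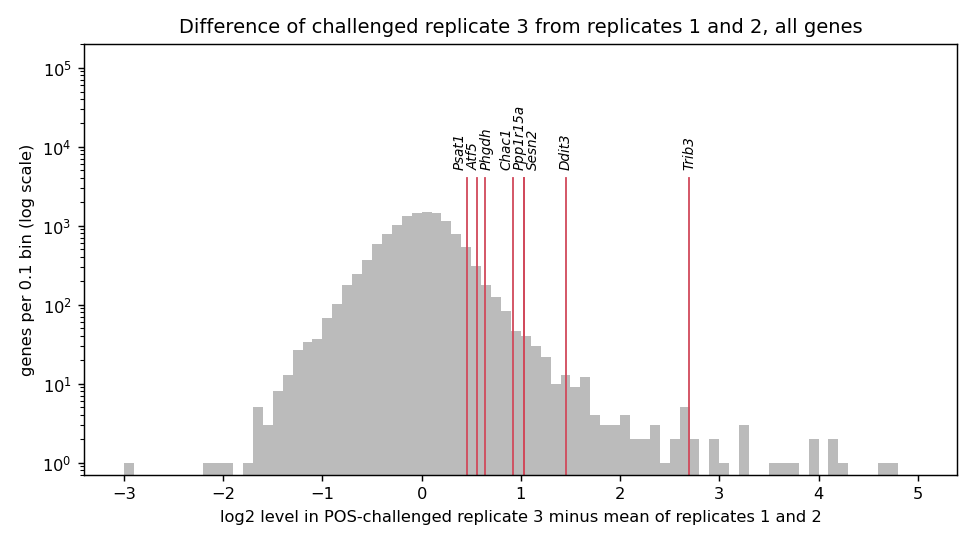
Histogram of all 12556 genes by their log2 level in challenged replicate 3 minus the mean of replicates 1 and 2 (horizontal axis; genes per bin on a log scale, vertical axis), with the 8 genes as red lines. All 8 lie above 0, from 0.46 for Psat1 to 2.70 for Trib3, and all but Psat1 and Atf5 lie past the 95th percentile of 0.593.

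Within the unchallenged group, replicate 2 was the lowest of the 3 libraries for 6 of the 8 genes (Ddit3, Trib3, Sesn2, Atf5, Psat1 and Phgdh), as it was for 35.2% of all genes. Ddit3 was the most variable there, its highest unchallenged library standing 1.56 times above its lowest, and Sesn2 the least, at 1.13 times. Unchallenged replicates 1 and 3 also carried high levels of interferon-stimulated genes, 8 of which summed to 32874, 1354 and 40717 in unchallenged replicates 1, 2 and 3, beside 984, 1570.2 and 6015 in challenged replicates 1, 2 and 3. Their part in the stress response levels was not tested.

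Per kilobase of annotated exon (GENCODE M21), Atf5 was the most abundant in unchallenged cells at 3583 ± 239 normalized counts (SD, n = 3). Ppp1r15a followed at 1052 ± 105, then Ddit3 at 711 ± 158, Phgdh at 645 ± 78.3 and Psat1 at 593 ± 82.3, and these last 3 lay within their spread of each other. Sesn2 at 314 ± 19.4, Chac1 at 287 ± 48.3 and Trib3 at 267 ± 54.9 formed the low end and did not differ beyond their spread. In challenged replicate 3 Trib3 left the low end, at 1409.6 normalized counts per kilobase, above Phgdh at 984 and next to Ddit3 at 1529.7. The other genes kept their order, with Atf5 at 4906 and Ppp1r15a at 1704 above Ddit3. Exon length was taken over all annotated exons of a gene and not over the transcripts expressed, so the order between genes depends on the annotation.

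Genes around the members in the pathway were taken from 6 textbook lists. Of their 79 measured genes, 0 passed an adjusted p of 0.05 in the limma fit over 6 libraries and 8 reached an unadjusted p of 0.05, where 0.0956% and 11.5% of all genes did. Over all genes the median log2 fold change was 0.007 with all libraries and 0.002 without challenged replicate 3. Fold changes were below 0 for 48.3% of all genes with all libraries and for 49.3% without challenged replicate 3.

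Among the kinases and controls of eIF2 (16 of 16 measured), 7 fold changes were above 0 and 9 below, with a median of -0.02. Eif2ak3, the kinase PERK that senses unfolded protein in the endoplasmic reticulum, had 1747, 1726 and 1238 normalized counts in challenged libraries, against 1417, 1623 and 1759 in unchallenged ones. Eif2ak4, the amino acid sensor GCN2, had 1757, 1565 and 1281 in challenged libraries, against 1385, 1617 and 1515 in unchallenged ones. For both kinases, named after their values were seen, challenged replicate 3 was the lowest of the 6 libraries. Over the 16 genes of the list it was the highest library for 8 and the lowest for 3, against 31.0% and 28.8% of all genes. Eif2ak2, the double-stranded RNA sensor PKR and itself interferon-induced, had 1073, 1027 and 1589 normalized counts in challenged libraries, against 3420.4, 1153 and 4252 in unchallenged ones, where the high libraries are those with high interferon-stimulated genes. The most abundant members, Dnajc3, an inhibitor of PERK, and Ppp1r15b, the constitutive partner of the eIF2 phosphatase, averaged 6791 ± 1348 and 4881 ± 445 in challenged cells and 7153 ± 764 and 5419 ± 45.4 in unchallenged cells (SD, n = 3 each). Eif2b4, a subunit of the eIF2 exchange factor, averaged 761 ± 30.4 in challenged and 597 ± 33.1 in unchallenged cells, with no overlap between groups (limma adjusted p = 0.240); all challenged values lay above all unchallenged ones for 3 of the 16 genes and for 9.56% of all genes. Eif2b4 was the 1 of 16 called in the authors' deposited table (adjusted p = 0.0358), where 2.55% of the genes with an adjusted p were called.

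The aminoacyl-tRNA synthetases, which charge tRNAs and many of which ATF4 induces, were high in the same library (15 of 15 measured). Challenged replicate 3 was the highest library for 13 of the 15, against 31.0% of all genes, and the median log2 level of the list was 0.42 above the unchallenged mean there, against -0.13 and -0.06 in challenged replicates 1 and 2. Over all 6 libraries 12 fold changes were above 0 and 3 below, with a median of 0.10. Without challenged replicate 3, 12 were below 0, against 49.3% of all genes, with a median of -0.09. Aars, for alanine, had 10103, 10310.5 and 15639.6 normalized counts in challenged libraries, against 11258, 9601 and 10874 in unchallenged ones. Nars, for asparagine, had 11092 and 11125 in challenged replicates 1 and 2 and 14540.0 in replicate 3, against 14192, 11647 and 12995 in unchallenged libraries. The exceptions, named here after their values were seen, were Cars and Hars. Cars, for cysteine, had 4231 in challenged replicate 3, against 4566 in unchallenged replicate 1. Hars, for histidine, was lower in challenged replicate 3 (1811) than in any other library.

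Of the genes of amino acid and one-carbon synthesis (11 of 12 measured), challenged replicate 3 was the highest library for 7, against 31.0% of all genes. Without it 9 of 11 fold changes were below 0, against 49.3% of all genes (median -0.19, and 0.002 with it). Shmt2, which makes one-carbon units from serine in mitochondria, had 2484, 2686 and 3777 normalized counts in challenged libraries, against 3508, 2461 and 2905 in unchallenged ones. Aldh18a1, which starts proline synthesis, had 2277, 2432 and 4157 in challenged libraries, against 3143, 2265 and 2686 in unchallenged ones. Among amino acid transporters (9 of 10 measured), 5 fold changes were above 0 and 4 below, with medians of 0.04 with challenged replicate 3 and -0.09 without it. That library was the highest for 4 of 9, against 31.0% of all genes. Slc3a2, the shared heavy chain of several transporters, averaged 25423 ± 2054 in challenged and 25887 ± 1260.3 in unchallenged cells, and Slc38a2, a glutamine and neutral amino acid carrier, 18237 ± 1049 and 21746 ± 1718 (SD, n = 3 each; limma adjusted p = 0.927 and 0.385).

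Among partners of ATF4 and CHOP and stress effectors (10 of 13 measured), 3 fold changes were above 0 and 7 below, with a median of -0.17. That median was -0.07 without challenged replicate 1, -0.10 without challenged replicate 2 and -0.22 without challenged replicate 3. Challenged replicate 3 was the highest library for 6 of 10, against 31.0% of all genes. Ero1l, an oxidase of the endoplasmic reticulum, averaged 15265 ± 1578 in challenged and 24456 ± 7973 in unchallenged cells, and Gdf15, a secreted stress cytokine, 3933 ± 90.9 and 3387 ± 1077 (SD, n = 3 each; limma adjusted p = 0.389 and 0.664). The shape of Chac1 and Sesn2, with challenged replicates 1 and 2 lowest and replicate 3 highest, held for 4 of 10, against 4.46% of all genes; these were singled out after their values were seen. Eif4ebp1, a repressor of cap-dependent translation, had 1825, 1852 and 2834 normalized counts in challenged libraries, against 2484, 2041 and 2091 in unchallenged ones. Bbc3, the CHOP-linked death gene also known as PUMA, had 126, 129 and 287 normalized counts in challenged libraries, against 187, 187 and 207 in unchallenged ones. Stc2, a secreted glycoprotein, had 209.5, 223 and 499.9 in challenged libraries, against 459, 318 and 338 in unchallenged ones. Cebpg, a dimer partner of ATF4, had 1928, 2012 and 2952 in challenged libraries, against 2246, 2253 and 2229 in unchallenged ones. Ddit4, which like Sesn2 restrains mTORC1, did not share this shape, with 2587, 2466 and 1820.2 in challenged libraries, against 2629, 2444 and 2373 in unchallenged ones.

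The IRE1 and ATF6 arms of the unfolded protein response, which induce chaperones and folding enzymes, stood the other way in challenged replicate 3 (18 of 18 measured). It was the highest library for 0 of 18 and the lowest for 14, where it was the lowest for 28.8% of all genes. The median log2 level of the list there was 0.47 below the unchallenged mean (-0.47), against -0.04 and -0.05 in challenged replicates 1 and 2. Hspa5, the main chaperone BiP, had 45710.4, 45681 and 36166 normalized counts in challenged libraries, against 55909.7, 42985 and 56888 in unchallenged ones. Hsp90b1, the chaperone GRP94, had 43651, 43108 and 27194 in challenged libraries, against 46578, 40587 and 48006 in unchallenged ones. Over all 6 libraries 17 of 18 fold changes were below 0, against 48.3% of all genes, with a median of -0.17, and 0 passed in limma. Without challenged replicate 3, 15 of 18 were below 0, against 49.3% of all genes, and the median was -0.05. Without challenged replicate 1 or 2 the median was -0.26 or -0.27. Xbp1, the factor spliced by IRE1, had 3569.9, 3545 and 2516 in challenged libraries, against 3536, 3213 and 3414 in unchallenged ones, and spliced mRNA cannot be told apart in values per gene.

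**Figure D4:**
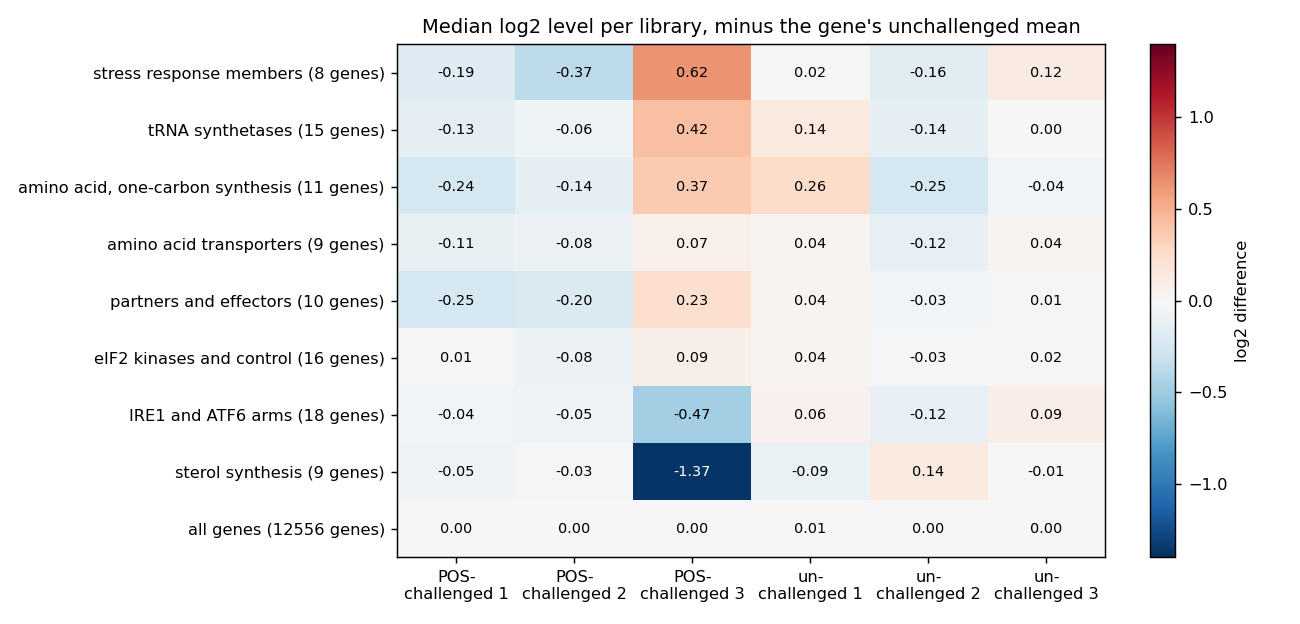
Median log2 level of each gene list in each library minus the gene's mean over unchallenged libraries (colour and printed value), with POS-challenged libraries left of unchallenged ones. In challenged replicate 3 the stress response genes are at 0.62 and the tRNA synthetases at 0.42, while the IRE1 and ATF6 arms are at -0.47 and sterol synthesis at -1.37.

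The genes whose profile over the 6 libraries was most like that of Trib3 were sought among 10214 others with a mean of at least 100, by the root mean square difference of centred log2 levels. They were Acot2 (0.188), Cdsn (0.429), Ciart (0.432), Trim46 (0.485) and Tmem144 (0.487). Cdsn and Ciart reached that mean only through challenged replicate 3, with means of 75.9 and 75.2 over the other 5 libraries. Acot2, a mitochondrial acyl-CoA thioesterase, had 129, 102 and 780.1 normalized counts in challenged libraries, against 170.3, 121 and 139.8 in unchallenged ones. For Ddit3 the nearest were Tmem144 (0.135), Rcc2 (0.165), Zbtb40 (0.180), Tbc1d31 (0.187) and Mga (0.195), and none of the other 7 members was among either set of 5. These profiles rest on 6 libraries and mainly on challenged replicate 3. Atf4, for which the same search was planned, was not analysed here.

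On the mouse assembly GRCm38.p6 (RefSeq), Trib3 lies on chromosome 2 from 152337425 to 152344060 and Chac1 on the same chromosome from 119351242 to 119354326. Ddit3 lies on chromosome 10 from 127290793 to 127296291, Sesn2 on chromosome 4 from 132492804 to 132510456 and Phgdh on chromosome 3 from 98313171 to 98339969. Ppp1r15a spans 45522917 to 45526268 of chromosome 7, where Atf5 spans 44812256 to 44816658. Psat1 spans 15905123 to 15925059 of chromosome 19. In GENCODE M21, exons of Ddit3 overlap those of Mars and Gm4189 on the opposite strand and those of another annotated gene of the same name on the same strand, exons of Atf5 those of Nup62 and Il4i1, and exons of Ppp1r15a those of Tulp2. No source used here says if counting used strand, so values of Ddit3, Atf5 and Ppp1r15a are uncertain to that extent. Those of Ddit3 would be uncertain also with strand if the annotation used for counting held the other entry of its name. Mars, for methionine, had 2505, 2608 and 3299 normalized counts in challenged libraries, against 2798, 2414 and 2538 in unchallenged ones. Phgdh has an annotated processed pseudogene, Phgdh-ps1, with which it may share reads.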

How the data were processed

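Poly(A) RNA of 3 POS-challenged and 3 unchallenged cultures was sequenced, each library on 2 lanes, per the labels. GSNAP, DESeq2 and mm10 are the tools and build in the submitters' processing notes. No source used here gives their versions, the annotation, the counting or its use of strand. The deposited library columns hold a signal, read counts divided by a size factor: per the values, 100% were multiples (within 0.001) of the value of 1 read. The authors also deposited log2 fold changes, a score (Wald statistic, with a standard error) and p-values, raw and adjusted.

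Here limma 3.58.1 in R 4.3.3, with a trend, was fitted to log2(value + 1) of all 12556 genes, with group as the only term (4 residual and 3.22 prior degrees of freedom) and Benjamini-Hochberg adjustment over all genes at 0.05. A minimum mean of 10 removed 0 genes. The script was tested on simulated data. The 10 genes, the gene lists and the setting apart of POS-challenged replicate 3 were chosen with earlier results of these data known. Named were the 8 measured members, the 2 most abundant genes of each list (none passed) and the 5 genes nearest in profile to Trib3 and Ddit3. Chosen later, with values in view, were Eif2ak2, Eif2ak3, Eif2ak4, Eif2b4, Mars, Hars, Cars, Eif4ebp1, Bbc3, Stc2, Cebpg, Ddit4, Xbp1, Pdgfra, Pdgfrb, Dcn, Isg15 and the genes of the closing section. Nothing states whether replicates were separate litters or days, so p-values measure the spread between these libraries. Alternatives were quantile normalization, other minimum means and pseudocounts, a replicate block, libraries left out and the authors' deposited table. Count tests on recovered reads were not run. Of the table's identifiers, 12346 matched RefSeq GRCm38.p6, the build that mm10 denotes.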

Additional observations from a re-analysis of the deposited data

How the results depend on the processing

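None of the 8 stress response genes passed the threshold under any alternative run, and their median log2 fold change, 0.07 with all libraries, lay between -0.301 and 0.184 when 1 library was left out, the lowest without POS-challenged replicate 3. Without that library the fold changes of Trib3, Ddit3, Ppp1r15a, Atf5, Psat1 and Phgdh turned to below 0, and without POS-challenged replicate 1 or 2 all 8 were above 0. Leaving out 1 unchallenged library also turned the sign of Ddit3 and Psat1 (replicate 2), Ppp1r15a (replicate 1) and Chac1 (replicate 3). Over all genes, 8 were higher and 4 lower. With 1 library left out, 1 to 12 were higher and 0 to 108 lower, the largest counts without unchallenged replicate 2. Without both unchallenged libraries 1 and 3, 0 were higher and 0 lower, with the lone unchallenged library assumed to vary like the challenged ones, and the authors' deposited table had 105 and 203. The replicate block gave 1 higher and 0 lower; same-numbered libraries did not all deviate together (correlations of -0.351, 0.172 and 0.173), so the numbers were not taken to pair them. Of the 6 lists, the eIF2 kinases and controls had 0 to 1 called with 1 library left out (Eif2ak2, without unchallenged replicate 2) and 1 in the authors' deposited table (Eif2b4). The other lists had 0 called with any 1 library left out, and their medians then lay between -0.0935 and 0.0663 for amino acid transporters, -0.193 and 0.133 for amino acid and one-carbon synthesis, -0.0946 and 0.186 for tRNA synthetases, -0.222 and -0.0736 for partners and effectors, and -0.266 and -0.0522 for the IRE1 and ATF6 arms. The edgeR and DESeq2 alternatives on recovered reads were planned and not run.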

Other observations

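The listed genes Aldh1l2, Slc7a11 and Nupr1, singled out after their values were seen, were highest of all 6 libraries in unchallenged replicate 1. Aldh1l2, a mitochondrial enzyme of one-carbon metabolism, had 653, 655 and 2434 normalized counts in challenged replicates 1, 2 and 3, against 2629.8, 684 and 1285 in unchallenged replicates 1, 2 and 3. Its high libraries were thus challenged replicate 3 and unchallenged replicate 1, one in each group. Slc7a11, the cystine carrier that supplies glutathione synthesis, had 1411, 1478 and 1843 in challenged libraries, against 4081, 1726 and 2760.1 in unchallenged ones (limma log2 fold change -0.78, adjusted p = 0.389, lower in challenged cells in 2 of 3 libraries when set against the lowest unchallenged one). Nupr1, a stress-induced chromatin regulator, had 177, 209 and 234 in challenged libraries, against 462, 235 and 294 in unchallenged ones (log2 fold change -0.63, adjusted p = 0.411). For Nupr1 all 3 challenged values lay below the unchallenged ones, as for 10.4% of all genes.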
